A study of Mus musculus with 45 samples.

Results

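The 10 circadian clock genes Per1, Per2, Per3, Cry1, Cry2, Arntl, Clock, Nr1d1, Nr1d2 and Dbp were read out in bulk RNA-seq libraries of tuft cells sorted from the mouse small intestine. They were chosen by name as the core of the clock and were 10 of the 47729 genes in the count and TPM tables. All 10 passed the filter on low counts, over 5 reads in 6 libraries or more of the 45, and so were among the 14020 genes tested. Each library came from 1 male C57BL/6J mouse that arrived at 5 weeks of age, ate chow for 1 week and was kept at 30 °C with lights on from 6 to 18 h. The mice then ate a reference diet (RFD, 10% fat) or a high fat diet (HFD, 60% fat). Tuft cells were sorted as EpCAM+CD45+ Siglec-F+ per the labels. The study's methods name this gate too but also state that cells with CD45 were left out, so the sources conflict on CD45. The STF set held 11 RFD and 11 HFD libraries, and the LTF set held 11 RFD and 12 HFD libraries. The study's methods give 9 or 22 weeks of feeding, whereas every sample label states 9 weeks, so the sets are called by the names in the sample titles. A difference between the sets therefore cannot be told apart from a difference between runs of the experiment. Mice were housed 4 to a cage and killed on 3 consecutive days, 1 cage of each group a day. The hour of killing was not given in the sources used here.

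The molecular clock is a feedback loop that runs in nearly every cell with a period of about a day. CLOCK and the product of Arntl (BMAL1) bind E-box sequences and switch on the Per and Cry genes, whose proteins return to the nucleus and inhibit their own activators. BMAL1 and CLOCK also drive Nr1d1 and Nr1d2, which encode the nuclear receptors REV-ERBα and REV-ERBβ that repress Arntl, and Dbp, which encodes a transcription factor that acts on D-box sequences. In tissues whose clock runs, Arntl therefore peaks when Nr1d1, Dbp and the Per genes are near their lowest level. In the intestine, clock genes cycle with feeding, and digestive and epithelial renewal genes follow them.

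The libraries held 189340 to 4690213 reads on genes, of which 17 to 827 fell on the 10 clock genes together. The tuft markers (14 genes such as Dclk1, Trpm5 and Pou2f3) summed to a median of 6361 TPM in STF RFD, 2836 in STF HFD, 8318 in LTF RFD and 6916 in LTF HFD libraries, with single libraries from 38.0 to 11008 TPM. In 8 libraries they summed to less than 1000 TPM, 5 of them from STF HFD mice, 2 from STF RFD mice and 1 from an LTF HFD mouse. The 8 enterocyte markers summed to 2372 to 59217 TPM and the 4 Paneth markers to 139.8 to 383082 TPM. The libraries thus held transcripts typical of other cell types to a varying degree, and their source was not tested. The library of LTF RFD mouse 3 stood apart with the fewest genes detected (8580), and only 4 of the 10 clock genes had a read in it. In such bulk samples, fewer cells of a type and less RNA per cell cannot be told apart.

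The promoters of the clock genes were searched for elements through which the loop acts, and the exact matches are printed. Promoter windows of 300 bases, 250 before and 50 after the start of transcription, came from RefSeq on GRCm38.p6 for 9 of the 10 genes, all but Per2. The E-box was searched as CACGTG, the D-box as TTATGTAA and the REV-ERB and ROR element as TAGGTCA, on both strands. Of all 32851 promoter windows, 7.15% held the E-box, 0.938% the D-box and 2.61% the REV-ERB and ROR element. Per3 had the D-box 2 times, Per1 and Cry1 had the E-box once each, and Arntl had the REV-ERB and ROR element once. The windows of Cry2, Clock, Nr1d1, Nr1d2 and Dbp held none of the 3 letter strings. A match is a string of letters and was not tested for binding. The 250 bases before the start of Per3 (chr4:151044666-151044915, minus strand) are shown whole because Per3 was the clock gene whose level differed between diets, and the others as 30 bases around the match, with the element in capitals and each sequence 5′ to 3′ on the strand of its gene.
Per3 promoter: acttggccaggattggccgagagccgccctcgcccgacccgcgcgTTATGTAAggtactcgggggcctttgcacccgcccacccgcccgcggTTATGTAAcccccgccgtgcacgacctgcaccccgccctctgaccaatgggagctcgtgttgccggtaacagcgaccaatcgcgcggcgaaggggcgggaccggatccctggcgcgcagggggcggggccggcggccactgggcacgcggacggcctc
Per1 E-box, chr11:69098771-69098800, plus strand: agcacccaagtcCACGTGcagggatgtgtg
Cry1 E-box, chr10:85185097-85185126, minus strand: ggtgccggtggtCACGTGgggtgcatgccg
Arntl REV-ERB and ROR element, chr7:113207530-113207559, plus strand: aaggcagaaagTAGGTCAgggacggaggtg

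The clock genes were expressed at low to middling levels. On the length-corrected TPM scale, the median over all 45 libraries was highest for Nr1d1 (7.50 TPM) and Cry2 (7.19 TPM), followed by Per1 (5.68 TPM). Clock, Arntl, Per3 and Nr1d2 lay close together at 3.95, 3.68, 3.54 and 3.39 TPM. Cry1 (1.65 TPM), Per2 (1.36 TPM) and Dbp (0.980 TPM) were lowest. Of the neighbours in this order, Nr1d1 exceeded Cry2 in only 24 of 45 libraries, Clock exceeded Arntl in 22, Arntl exceeded Per3 in 24, Per3 exceeded Nr1d2 in 24 and Cry1 exceeded Per2 in 26, so these neighbours did not differ beyond the spread between libraries. Nr1d2 exceeded Cry1 in 35 of 45 libraries and Per1 exceeded Clock in 33. Among the 14020 genes tested, 61.6% had a lower median TPM than Nr1d1 and 25.6% had a lower one than Dbp. Dbp had 195 reads over all libraries and none in 9 of them, whereas Cry2 had 2692 reads. The libraries were not strand-specific, and Dbp shares 737 bases of its 3′ end with Sphk2 (6783 reads) on the other strand, while Nr1d1 shares 1075 bases with Thra (1473 reads), so reads there cannot be assigned to either gene with certainty.

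**Figure D1:**
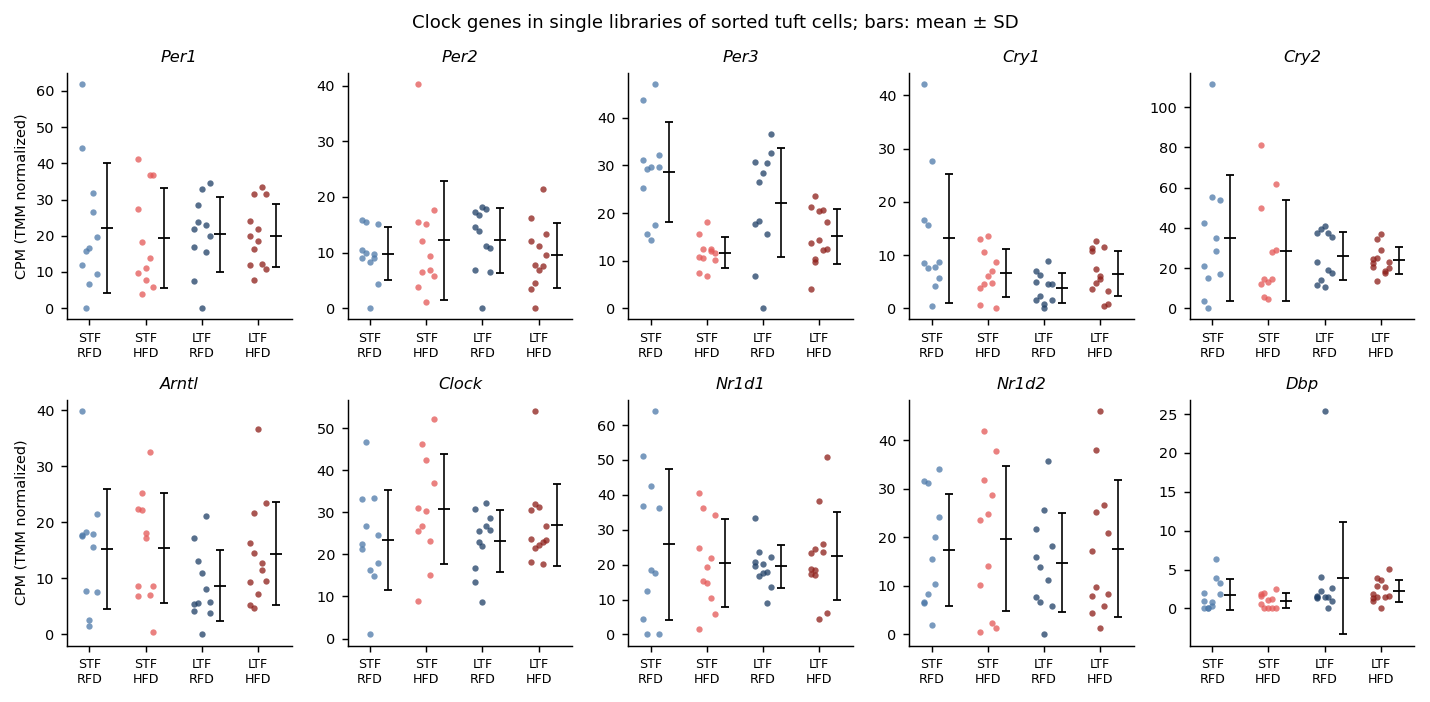
Level of each of the 10 clock genes as CPM (TMM normalized reads scaled to a common library size) in every library, by set and diet, with 1 point per mouse and the mean ± SD of the group beside it. Per3 is the panel in which the STF HFD points (6.76 to 18.2 CPM) lie mostly below the STF RFD points (14.4 to 47.0 CPM).

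To ask whether the diet moved the clock genes in the STF set, HFD and RFD libraries were compared with edgeR's quasi-likelihood test, with an adjusted p under 0.1 as the threshold. Per3, a Period gene that is driven through E-box and D-box elements and is the member of its family least needed for the rhythm itself, fell on HFD and was the only clock gene called. Of all genes tested, 3.07% (431) were called in this comparison, and 18.2% had an unadjusted p under 0.05, as did Per3 alone of the 10. The count of all genes called moved with single libraries, from 48 without HFD mouse 6 to 2004 without HFD mouse 64. Per3 ranged from 14.4 through a median of 29.6 to 47.0 CPM in the RFD libraries (28.7 ± 10.5, SD, n = 11) and from 6.76 through 11.6 to 18.2 CPM in the HFD libraries (11.6 ± 3.27, SD, n = 11). All 11 HFD libraries lay below the RFD median, 9 of 11 lay below every RFD library, and the groups overlapped only through the 3 lowest RFD and the 2 highest HFD libraries. On the log2 scale Per3 fell by 1.29 (SE 0.27), with an adjusted p of 0.0293 from edgeR's quasi-likelihood test. It rested on 238 reads in the HFD and 630 in the RFD libraries.

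The mouse numbers in the titles were grouped here into 3 series (1 to 8, multiples of 10, and 21 to 64). The fall of Per3 was seen within each, with HFD minus RFD differences in mean log2 CPM of -1.04, -1.39 and -1.23. Each series held 3 or 4 libraries of a diet. The labels give no cage, so a difference between cages was not separated from one between diets within a series. Leaving out each of the 22 libraries in turn kept the adjusted p between 0.0105 and 0.0708. Of the 14 tuft markers none was called by diet in this set, but 7 had an unadjusted p under 0.05 (edgeR), against 18.2% of all genes. Only 1 of the 14 had a fitted value above 0 (median log2 fold change -0.93). Of the 8 libraries with low tuft markers, 7 came from this set, so Per3 was also read in both kinds of library. In HFD libraries Per3 had a median of 11.6 CPM in the 5 with tuft markers under 1000 TPM and 11.5 CPM in the other 6, and in RFD libraries it had 31.2 and 32.2 CPM in the 2 under that limit and a median of 29.2 CPM in the other 9. Without the libraries of low tuft markers Per3 had a value of -1.19 with an adjusted p of 0.275, and no gene of all those tested was called (1295 had an unadjusted p under 0.05). On the TPM scale Per3 had a median of 4.35 TPM on RFD and 2.71 TPM on HFD, and limma on log2(TPM + 1) gave a difference of -0.87 with an adjusted p of 0.315. Per3 lies within Camta1 (429 reads) on the same strand, and reads from introns of Camta1 were not separated.

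The other 9 clock genes did not pass the test in the STF set. Among the further Period genes, Per1, which is also induced by stress hormones and by light, ranged from 0 through 16.7 to 61.8 CPM on RFD and from 3.86 through 13.9 to 41.3 CPM on HFD, with a log2 fold change of -0.20 (SE 0.43). Per2, a core repressor, had group means of 9.76 ± 4.78 and 12.2 ± 10.7 CPM (SD, n = 11 each) and a log2 fold change of 0.43 (SE 0.52). The diets overlapped widely for both genes.

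Of the cryptochromes, which are the strong repressors of the loop, Cry1 had the most negative value after Per3, with an RFD mean of 13.1 ± 12.1 CPM and an HFD mean of 6.59 ± 4.55 CPM (log2 fold change -0.98, SE 0.61, adjusted p = 0.406, edgeR), with 7 of 11 HFD libraries below the RFD median. Cry2 had a log2 fold change of -0.33 (SE 0.49) and spread from 0 to 111 CPM on RFD alone. Of the activators, Arntl had almost the same mean on both diets, 15.3 ± 10.7 and 15.4 ± 9.77 CPM, and Clock lay above the RFD median in 9 of 11 HFD libraries (23.5 ± 11.9 and 30.8 ± 13.0 CPM, log2 fold change 0.49, SE 0.37, adjusted p = 0.502, edgeR). Nr1d1 (log2 fold change -0.37, SE 0.50), Nr1d2 (0.27, SE 0.56) and Dbp (-0.81, SE 0.88) had standard errors as large as, or larger than, their values. In all, 4 of the 10 clock genes had a fitted value above 0, against 47.3% of all genes, and their median log2 fold change was -0.27, against -0.05 over all genes.

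None of the 10 clock genes was called by diet in the LTF set, with 0.728% of all genes called (102 of 14020, and from 63 without RFD mouse 10 to 649 without RFD mouse 1). None had an unadjusted p under 0.05, against 10.3% of all genes, and DESeq2 called none either. A fitted value above 0 was found for 5 of the 10, against 47.9% of all genes. Per3 ranged from 0 through 26.6 to 36.7 CPM on RFD (22.2 ± 11.5, SD, n = 11) and from 3.998 through 14.1 to 23.6 CPM on HFD (15.1 ± 5.79, SD, n = 12). All 12 HFD libraries lay below the RFD median, and 6 of 11 RFD libraries lay above every HFD library, while the lowest RFD library, mouse 3, had no Per3 read. Its fitted log2 difference was -0.57 (SE 0.38, adjusted p = 0.638, edgeR), and -0.70 (SE 0.27, adjusted p = 0.233, edgeR) without that library. Within the 3 number series the HFD minus RFD difference of Per3 in mean log2 CPM was 0.93, -0.15 and -1.08, the first of which holds that library.

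Arntl and Cry1 had the highest fitted values in the LTF set. Arntl had a median of 5.87 CPM on RFD and 12.1 CPM on HFD (8.69 ± 6.33 and 14.4 ± 9.14 CPM, SD), with 10 of 12 HFD libraries above the RFD median, and its fitted value was 0.72 on the log2 scale (SE 0.44, adjusted p = 0.597, edgeR). Its difference had the same sign in all 3 number series, at 0.47, 1.12 and 1.01 in mean log2 CPM. For Cry1 the RFD mean was 3.81 ± 2.85 CPM and the HFD mean 6.50 ± 4.23 CPM (log2 fold change 0.72, SE 0.56), with 8 of 12 HFD libraries above the RFD median. Dbp had a fitted value of -0.71 (SE 0.66) although 9 of 12 HFD libraries lay above the RFD median. This value rested on mouse 3 of the RFD group, which had 25.4 CPM where the other 10 had at most 4.02 CPM, and without it the value was 0.33. The remaining clock genes had fitted values between -0.37 (Per2, SE 0.46) and 0.26 (Nr1d2, SE 0.49), and the median of all 10 was 0.06, against -0.03 over all genes.

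**Figure D2:**
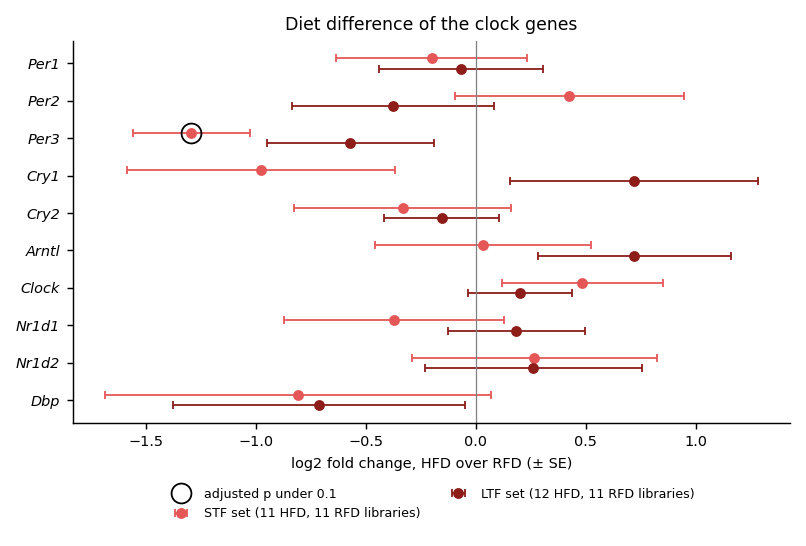
Log2 fold change of HFD over RFD for each clock gene in the STF and LTF sets, with the standard error worked back from the edgeR test as bars and a ring around the value with an adjusted p under 0.1. Per3 in the STF set (-1.29) carries the only ring, and Per3 in the LTF set (-0.57) lies on the same side of 0.

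Whether the diet difference itself differed between the sets was tested with an interaction term, which called none of the 10 clock genes and 1 gene of all 14020 (0.00713%). The term was 0.78 for Per3 (SE 0.46, unadjusted p = 0.0995, edgeR), so the smaller value in the LTF set was not shown to differ from that in the STF set. Cry1, with opposite signs in both sets, had the only unadjusted p under 0.05 among the clock genes (interaction 1.74, SE 0.83, p = 0.0390, adjusted p = 1.00, edgeR), against 3.27% of all genes. The term was above 0 for 8 of the 10, against 54.3% of all genes.

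Between the sets, no clock gene was called on either diet, against 1.55% of all genes on RFD and 5.55% on HFD. The LTF minus STF difference was above 0 for 3 of the 10 clock genes on RFD (47.2% of all genes) and for 4 of the 10 on HFD (53% of all genes), and an unadjusted p under 0.05 was found for Cry1 on RFD (10.3% of all genes) and for none on HFD (17% of all genes). Cry1 came nearest, with 13.1 ± 12.1 CPM in STF RFD and 3.81 ± 2.85 CPM in LTF RFD libraries (log2 difference LTF minus STF -1.76, SE 0.60, unadjusted p = 0.00455, adjusted p = 0.173, edgeR). STF RFD ranged from 0.380 to 42.1 CPM and LTF RFD from 0 to 8.92 CPM, with medians of 8.43 and 4.47 CPM, so the higher mean of STF RFD came with a wide spread. DESeq2 gave an adjusted p of 0.0509 for it, and the fit with a cell type covariate, the tuft markers minus the enterocyte markers, gave 0.0989. On HFD the value of Cry1 was -0.02 (SE 0.57). The lowest adjusted p of any clock gene on HFD was 0.482, for Dbp.

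Each of the 3 series, grouped here from the mouse numbers in the titles, holds both diets in each set. What a series stands for was not given. In the STF set they differed in tuft marker level, since 5 of the 7 libraries with numbers that are multiples of 10 had tuft markers under 1000 TPM, against 2 of 7 with numbers 1 to 8 and none of the 7 with numbers 21 to 64. Across these series 18.1% of all genes were called in the STF set, and of the clock genes only Nr1d2 (adjusted p = 0.0395, edgeR). Nr1d2 and Cry2 had an unadjusted p under 0.05, against 26.9% of all genes. Nr1d2 had a median of 14.2 CPM (6.49 to 31.8) in the series 1 to 8, 31.7 CPM (23.6 to 41.8) in the multiples of 10 and 2.27 CPM (0.523 to 24.1) in the series 21 to 64. The multiples of 10 thus overlapped with the series 21 to 64 only through 1 library of the latter, mouse 23 on RFD with 24.1 CPM. With the cell type covariate the adjusted p of Nr1d2 was 0.979, and 16 genes of all were called. For the LTF set 0.456% of all genes and none of the clock genes were called across the series (13.8% of all genes, but no clock gene, had an unadjusted p under 0.05, and DESeq2 called no clock gene).

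**Figure D3:**
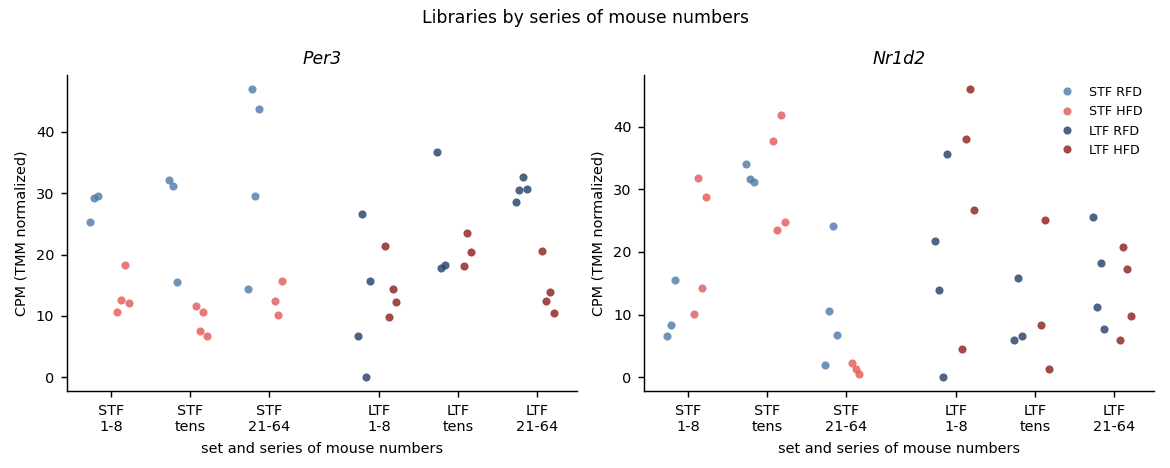
Per3 and Nr1d2 in CPM in each library, by set, by series of mouse numbers and by diet; the 2 libraries of no series (STF RFD mouse 84 and LTF HFD mouse 65) are not drawn. Per3 on HFD lies below most RFD points in each STF series, and Nr1d2 in the STF set is highest in the multiples of 10 (median 31.7 CPM) and lowest in the series 21 to 64 (median 2.27 CPM).

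By Spearman's rho, 3 of the clock genes followed the tuft marker level of the libraries. The share of all genes that did so was not computed. Each gene's log2 CPM, with the mean of its set and diet subtracted, was correlated with the means of 6 marker or gene lists, with total reads and with genes detected, 80 relations in all over 45 libraries. Per1 rose with the mean of the tuft markers (Spearman's rho 0.59, permutation p = 5e-05, adjusted p = 0.00213; Pearson's r 0.63, permutation p = 2e-05, and 0.67 without the 2 farthest libraries). Cry2 did so too (rho 0.55, permutation p = 0.00017, adjusted p = 0.0034; r 0.66, permutation p = 1e-05, the smallest the permutations can give, and 0.66 without the 2 farthest). Nr1d2 went the other way (rho -0.56, permutation p = 6e-05, adjusted p = 0.00213; r -0.46, permutation p = 0.00142, and -0.44 without the 2 farthest). Within the sets, rho was 0.51 in STF and 0.72 in LTF for Per1, 0.67 and 0.29 for Cry2, and -0.74 and -0.36 for Nr1d2.

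In the 8 libraries with tuft markers under 1000 TPM, Nr1d2 stood between 24.8 and 41.8 CPM with a median of 32.96 CPM, against a median of 10.5 CPM (0 to 46.1) in the other 37. Per1 had a median of 8.68 CPM in those 8 and of 20.1 CPM in the other 37, and Cry2 had 14.1 and 24.6 CPM. Nr1d2 also rose with the mean of the Paneth markers (rho 0.58, permutation p = 8e-05, adjusted p = 0.00213; r 0.56, permutation p = 9e-05, and 0.44 without the 2 farthest libraries), with rho 0.58 in STF and 0.57 in LTF. Paneth cells are the granular antimicrobial cells at the base of the crypt. Per3, the gene that fell on HFD in STF, had a rho of 0.32 with the tuft markers (permutation adjusted p = 0.199), at 0.10 in STF and 0.56 in LTF, but passed by Pearson's r (0.44, permutation adjusted p = 0.0300, and 0.45 without the 2 farthest libraries). Of the 80 relations, 7 passed by rho and 20 by r. Whether these 3 genes moved with the cells sorted or within one kind of cell was not tested.

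**Figure D4:**
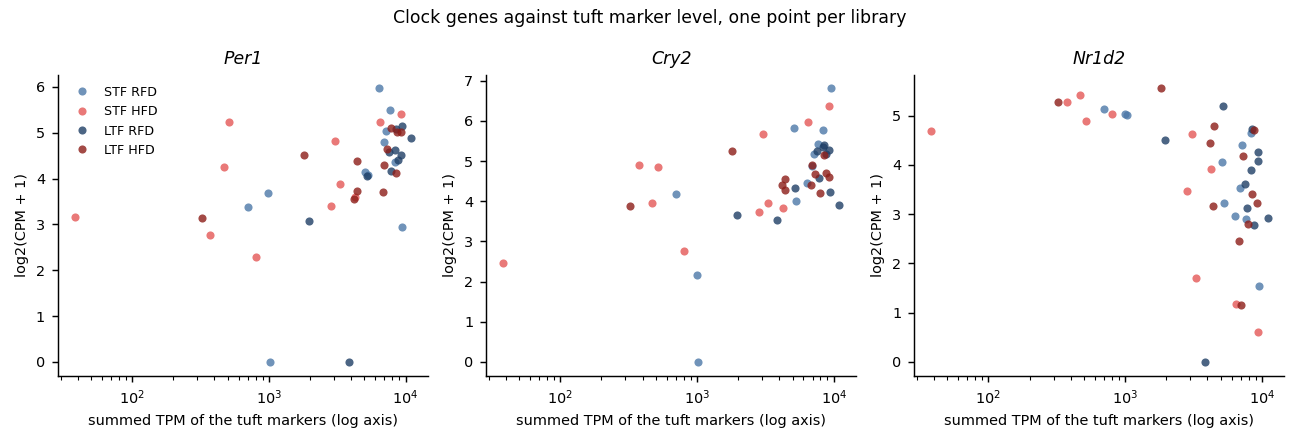
Log2(CPM + 1) of Per1, Cry2 and Nr1d2 against the summed TPM of the 14 tuft markers on a log axis, 1 point per library coloured by set and diet. The 8 libraries under 1000 TPM all lie high for Nr1d2 (24.8 to 41.8 CPM).

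A pattern of phase would show in pairs of clock genes that rise and fall together or in opposition from mouse to mouse. For each of the 45 pairs, the log2 CPM of both genes was correlated across the libraries of a set after the diet mean was subtracted, with 100000 permutations and adjustment over the 90 tests of both sets. None of the 45 pairs passed by Spearman's rho in the STF set (7 had an unadjusted p under 0.05, and 3 passed by Pearson's r). Among the LTF libraries 1 pair passed, Per1 with Per3 (rho 0.67, permutation p = 0.00069, adjusted p = 0.0621; r 0.85, permutation p = 0.00025, adjusted p = 0.0157, n = 23), and 6 passed by Pearson's r. This relation leaned on LTF RFD mouse 3, where both genes had no read. Without it rho was 0.45 with a permutation adjusted p of 0.266, and without the 2 libraries farthest from the median of Per1, r was 0.54. Within the number series rho was 0.86, -0.43 and 0.62. In the STF set the same pair had a rho of 0.21. Over all 45 libraries, with group means subtracted, its rho was 0.42. By that value Per3 ranked 1738 of 14019 genes in likeness to Per1, and Per1 ranked 462 in likeness to Per3. The count of pairs passing by Pearson's r went from 6 to 1 in LTF without LTF RFD mouse 3. In STF it went from 3 to 0 without libraries under 500000 reads, and also without the libraries of low tuft markers. How many pairs of other genes would pass was not computed.

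The pairs that the loop sets in opposition, Arntl or Clock against Nr1d1, Nr1d2, the Per genes or Dbp, were 12 in each set. Of these, 5 were negative in the STF set and 5 in the LTF set, with a median rho of 0.14 and 0.03. Over all 45 pairs, 23 were negative in STF and 21 in LTF. Of the 12 opposed pairs, 3 had an unadjusted permutation p under 0.05 by rho in LTF and 0 in STF. Clock with Nr1d2 was among these but positive (LTF rho 0.45, permutation p = 0.0323, adjusted p = 0.281). Its r in LTF was 0.58 (permutation adjusted p = 0.0696, and 0.34 without the 2 farthest libraries). In STF its rho was 0.29 and its r 0.54 (permutation adjusted p = 0.0938, and 0.17 without the 2 farthest). Arntl ran in the LTF set against Nr1d1 (rho -0.51, permutation p = 0.0131, adjusted p = 0.236; r -0.40, permutation p = 0.0642, and -0.52 without the 2 farthest libraries), and the sign was negative in all 3 number series (-0.17, -0.83 and -0.71). Arntl ran against Dbp there too (rho -0.50, permutation p = 0.0162, adjusted p = 0.236; r -0.73, permutation p = 0.00035, adjusted p = 0.0157), with r at -0.39 without the 2 libraries farthest from the median of Arntl. Neither pair passed by Spearman's rho. Without LTF RFD mouse 3, which had no Arntl read and 25.4 CPM of Dbp, rho was -0.47 with Nr1d1 and -0.40 with Dbp. In the STF set these 2 Arntl pairs had rho 0.32 and -0.20. There the highest values were Per1 with Nr1d1 (rho 0.54, permutation p = 0.0105, adjusted p = 0.236; r 0.54, permutation p = 0.00938, and 0.28 without the 2 farthest) and Per1 with Cry2 (rho 0.53, permutation p = 0.013, adjusted p = 0.236; r 0.68, permutation p = 0.00085, and 0.51 without the 2 farthest). Both Per1 and Cry2 followed the tuft markers above. A library held 17 to 827 clock reads, and how much of the spread was counting error was not tested. The hour of killing was not given, so no library could be placed on the daily cycle, and whether the mice differed in phase was not tested.

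**Figure D5:**
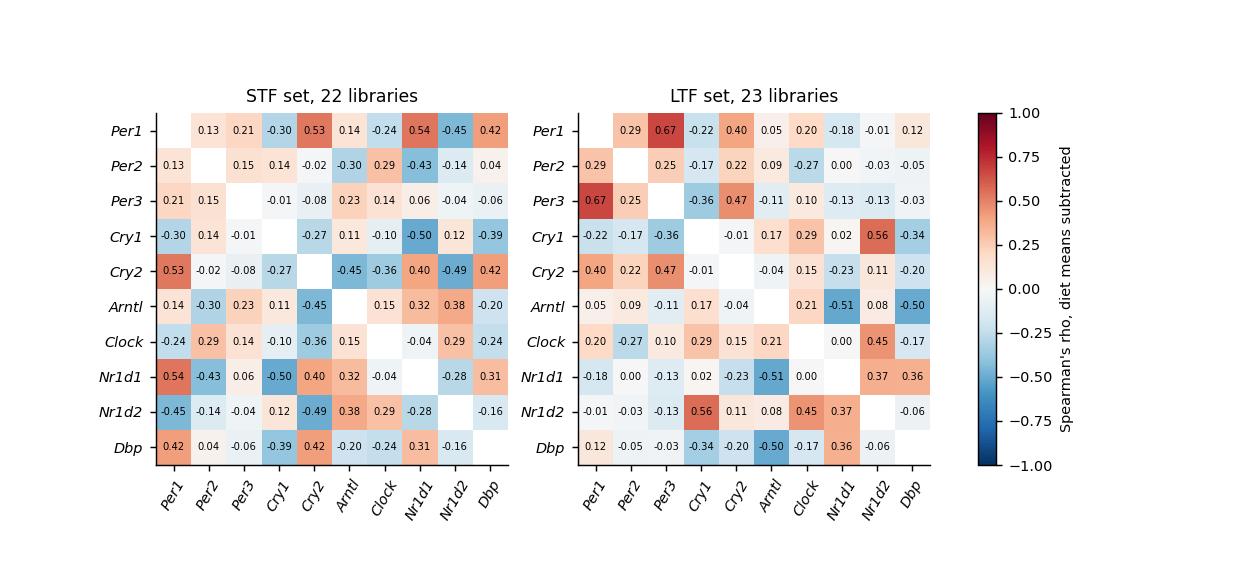
Spearman's rho between each pair of clock genes across the 22 STF and the 23 LTF libraries, with the diet means subtracted; red is positive and blue negative. Per1 with Per3 in LTF (0.67) is the highest value, and the cells of Arntl against Nr1d1 (-0.51) and Dbp (-0.50) are blue in LTF but not both in STF. The cell of Clock against Nr1d2 is red in LTF (0.45) and in STF (0.29).

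The further genes of the clock gave no diet difference. Of 17 other clock genes (such as Npas2, a stand-in for Clock, the Ror genes, which activate Arntl, the D-box factors Tef, Hlf and Nfil3, and the kinases Csnk1d and Csnk1e), 16 were tested, and none was called by diet in either set, by the interaction or between the sets. Their median log2 fold change on HFD was -0.07 in STF, with 8 of 16 above 0, and -0.33 in LTF, with 4 of 16 above 0. Of 4 genes known as clock outputs (Wee1, Nampt, Usp2 and Tsc22d3), none was called in these comparisons either. Across the number series of the STF set, 6 of the 16 were called, Arntl2, Bhlhe40, Fbxl21, Hlf, Rorb and Timeless, with adjusted p (edgeR) from 0.0120 for Fbxl21 to 0.0619 for Rorb, against 18.1% of all genes.

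Per1 is induced within minutes by stress hormones and by the same signals as the immediate early genes, so 10 such genes were read beside it. On HFD in the STF set 2 of the 10 were called higher, Fos (log2 fold change 1.46, SE 0.42, adjusted p = 0.0811, edgeR) and Jun (1.38, SE 0.37, adjusted p = 0.0747, edgeR), both parts of the AP-1 transcription factor, with 3.07% of all genes called, and 9 of 10 had a value above 0, against 47.3% of all genes. In this comparison 0 of all genes were called without the 8 libraries of low tuft markers. With the cell type covariate 63 were called, and with limma 9 and 5. Fos and Jun were not read out in those fits. None was called by diet in the LTF set. On HFD, 3 were lower in the LTF than in the STF set, with 5.55% of all genes called in either direction, the phosphatase gene Dusp1 (-1.85, SE 0.49), the transcription factor gene Egr1 (-1.80, SE 0.47) and Jun (-1.15, SE 0.32). The same difference on RFD was -1.68 (SE 0.51, adjusted p = 0.107, edgeR) for Dusp1, -1.36 (SE 0.49) for Egr1 and -0.03 (SE 0.33) for Jun. None of the 10 was called on RFD or by the interaction. Across the number series of the STF set, Ier2 was called (adjusted p = 0.0173, edgeR), against 18.1% of all genes. From library to library Per1 rose with the mean of these 10 genes (rho 0.53, permutation p = 0.00028, adjusted p = 0.00448; r 0.44, permutation p = 0.00242, and 0.53 without the 2 farthest libraries), with rho 0.51 in STF and 0.45 in LTF. Nr1d1 did so less closely (rho 0.40, permutation p = 0.00689, adjusted p = 0.0787; r 0.38, permutation p = 0.00861, and 0.30 without the 2 farthest), and it also rose with total reads (rho 0.41, permutation p = 0.0051, adjusted p = 0.068; r 0.52, permutation p = 0.00039, and 0.33 without the 2 farthest).

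The genes whose levels were most like those of Arntl and Dbp across all 45 libraries, with group means subtracted, were looked up among all genes tested. For Arntl these were Ankrd28, Eml1, Zfp790, Vcpkmt and Acsl6, with rho from 0.61 to 0.56. For Dbp they were Numa1, Gata5, Gstm5, Zmiz2 and Clptm1, with rho from 0.67 to 0.55. No clock gene was among them. Dbp had no read in 9 of these libraries, and the order was not recomputed without them.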

How the data were processed

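Smart-seq2 cDNA libraries of sorted tuft cells, 1 per mouse, were sequenced in pairs of reads without strand information. Per the labels, the authors removed adapters with Cutadapt 1.15, aligned reads to GRCm38 with STAR 2.6.0 and counted them with RSEM (version and annotation not given in the sources used here). The deposited estimated counts, of which 8.79% of the values above 0 were not whole, precede the authors' filter and cell type weighting and were rounded. The deposited TPM are the authors' length-corrected values. FPKM tables were not used, nor were 24 columns in each kind of table that match no listed sample. Samples were grouped by title. Gene symbols and overlaps came from GENCODE M21, which has a symbol for 47224 of the 47729 gene identifiers; 19 genes were dropped for a shared symbol.

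Genes with more than 5 reads in at least 6 libraries were kept. Counts were normalized by TMM, and edgeR 4.0.16 (quasi-likelihood test, Benjamini-Hochberg adjustment over 14020 genes, threshold 0.1) was run in R 4.3.3 within each set for diet and number series and over both sets for the interaction and the sets. Each library was taken as 1 replicate, and p-values measure the spread between libraries, 1 per mouse. Mice shared cages, and the cage was not a term in any fit. Standard errors given with edgeR values were worked back from the test, as the size of the coefficient before shrinkage divided by the square root of F. Log2 CPM had a prior count of 2. Correlations used 100000 two-sided permutations (scipy 1.17.1). Alternatives were DESeq2 1.42.0, relative log expression factors, no filter, limma 3.58.1 on log2(TPM + 1) and log2(TPM + 0.1), a cell type covariate, the series as a term, a replicate block and leaving out libraries; leaving out the 8 libraries of low tuft markers or LTF RFD mouse 3, the relations with markers and the promoter search were chosen after seeing the data. The scripts were tested on simulated data. The 10 genes and all lists were chosen with earlier results of these data known. All 10 were described; of the lists, genes with an adjusted p under 0.1 were named, and for Arntl and Dbp the 5 genes of highest rho. Reads were not counted by molecular identifiers.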

Additional observations from a re-analysis of the deposited data

How the results depend on the processing

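The fall of Per3 on HFD in the STF set kept its direction under every alternative run, with log2 fold changes from -1.37 to -1.19 when 1 library was left out, and the count of clock genes called stayed at 1 there (1 to 1). It went to 0 with limma on log2(TPM + 1), with limma on log2(TPM + 0.1) (Per3 -1.20, adjusted p = 0.381) and without the 8 libraries of low tuft markers (Per3 -1.19). The counts of all genes called in that comparison were 431 in the fit reported, 1220 with DESeq2, 260 with no filter, 63 with the cell type covariate, 9 and 5 with limma, 0 without the low tuft libraries and 48 to 2004 with 1 library left out. In the LTF set the count stayed at 0 under every alternative, also when 1 library was left out (0 to 0), while all genes called were 293 with DESeq2 51 and 31 with limma and 63 to 649 with 1 library left out. The interaction called 0 clock genes under each alternative. Between the sets on RFD, the count went to 1 (Cry1) with DESeq2 and to 1 with the cell type covariate; the median of all genes was 0.22 and 0.38 with limma on TPM against -0.04 in the fit reported on RFD, and 0.33 and 0.56 against 0.05 on HFD. Across the number series of the STF set the count was 2 with no filter (Nr1d2 and Cry2), 5 with limma on log2(TPM + 1), 5 with limma on log2(TPM + 0.1), and 0 with the cell type covariate and without low tuft libraries (Nr1d2 adjusted p = 0.979 and 0.481). In the LTF set it was 1 (Per1) with limma on log2(TPM + 1). The 1 pair called in the LTF set went to 0 with no mean subtracted, with the diet and series mean subtracted, on log2(TPM + 1), with the cell type covariate, without low tuft libraries and without LTF RFD mouse 3.

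Clock genes short of the threshold changed sign as follows, in log2 fold change on HFD. In STF, Arntl (0.03) was -0.0033 with DESeq2, -0.0044 with relative log expression factors, -0.00012 without libraries under 500000 reads, -0.38 with the covariate, -0.17 with the series term, -0.63 without low tuft libraries, and -0.090 and -0.15 with limma; Nr1d2 was -0.95 with the covariate, -0.41 with the series term, -0.60 without low tuft libraries, and -0.020 and -0.13 with limma. Clock was -0.22 and -0.23 with limma, Nr1d1 0.23 and Per1 0.065 with limma at 0.1, Per1 0.16 and Cry2 0.082 with the covariate, and Per1 0.017 with the series term. In LTF, Per1 was 0.44 and 0.72 with limma, 0.34 with the covariate, 0.0041 with no filter and 0.0032 without low tuft libraries; Clock was -0.22 and -0.28 and Cry2 0.016 and 0.023 with limma, and Nr1d2 was -0.15 with the covariate. Between the sets on HFD, Cry1 was 0.30 and 0.58 with limma and 0.18 without low tuft libraries. With 1 library left out, the ranges that crossed 0 were -0.37 to 0.054 for Per1, -0.63 to 0.014 for Cry2 and -0.14 to 0.27 for Arntl in STF, and -0.20 to 0.036 for Per1, -0.0047 to 0.36 for Nr1d1 and -0.88 to 0.33 for Dbp in LTF. The cause was not tested.

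With the mouse number as a replicate block over both sets, 0 clock genes were called by the interaction, on RFD or on HFD, as without it, and 0, 3 and 2 of all genes. Libraries of the same number did not deviate together (correlations of -0.38 to 0.38 over 9 numbers on RFD and 7 on HFD), so the numbers were not taken as pairs. Read totals over all libraries were lowest for Dbp (195), Cry1 (619) and Per2 (942).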

Other observations

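The first principal component of the 10 clock genes, with diet means subtracted and each gene scaled to the same spread, held 31.1% of their variance in the STF set and 42.1% in the LTF set. In the STF set Arntl (loading 0.21), Clock (0.25), Cry1 (0.29) and Nr1d2 (0.37) lay on one side and Per1 (-0.44), Cry2 (-0.51), Nr1d1 (-0.34) and Dbp (-0.31) on the other, with Per2 (0.05) and Per3 (-0.10) near 0. In the LTF set 8 of the 10 lay on one side, Per1 (0.41), Per3 (0.40), Arntl (0.35), Clock (0.30), Per2 (0.30), Nr1d2 (0.29), Cry2 (0.28) and Cry1 (0.22), and Dbp (-0.39) and Nr1d1 (-0.09) lay opposite. Without LTF RFD mouse 3, which had no read of 6 of the clock genes and 25.4 CPM of Dbp, the component held 27.7%, and Per1 (-0.40), Per3 (-0.45), Cry2 (-0.29), Per2 (-0.19) and Dbp (-0.08) lay opposite Cry1 (0.42), Nr1d2 (0.40), Nr1d1 (0.33), Clock (0.25) and Arntl (0.04). This split was looked at after the data were seen and was not tested.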
